A study of Mus musculus with 9 samples.

Results

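Restimulated CD4 T cells called Hopx low were compared with restimulated naive CD4 T cells, gene by gene. Hopx is a homeodomain-only protein without DNA binding of its own. The comparison takes the 6 libraries labelled Hopx low or naive and every gene row on an autosome, 22007 of the 23171 rows in the deposited table. Of these 22007, 10385 reached a mean of 1 base per Mb and were tested, and 8129 were at 0 in all 6 libraries. The other libraries of the series, labelled Hopx high, were not part of the rule. The table holds coverage, the number of sequenced bases over a gene, and each level below is in bases per megabase (Mb) of a library's summed coverage, so a level depends on a gene's length.

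The Hopx low group has 3 libraries and so does the naive group, all from CD4 T cells of C57BL6 mice taken from lymph nodes and spleen. The labels describe a shared treatment. Chimeric antibodies that bring an antigen to dendritic cells were given intraperitoneally 5 days ahead of the first sort, the T cells were then cultured for 12 h with antigen-presenting cells, and RNA was taken after a further sort. That text is the same for Hopx low and naive libraries. It does not say from which animals the naive cells came, how Hopx was measured for the sort, the sex or age of the mice, or that replicates are separate animals, so the p-values cover the spread among these libraries and no more.

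T cells that meet antigen on dendritic cells without inflammation can become tolerant or can turn into peripheral regulatory T cells, which depend on the transcription factor Foxp3. A naive T cell rests under quiescence factors such as Klf2, and after stimulation through its T cell receptor (TCR) it turns on early response factors, then cytokines such as interleukin 2 (IL-2), and later the genes of DNA replication and mitosis. Antigen-experienced cells tend to carry coinhibitory receptors, IL-2 receptor chains and Helios, the Ikaros family factor encoded by Ikzf2. These are general facts about T cells, and they were not measured here beyond the RNA levels that follow.

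Summed coverage was 420, 330 and 442 megabases in Hopx low replicates 1, 2 and 3, against 63.3, 86.5 and 289 megabases in naive replicates 1, 2 and 3. A read of 100 bases, an assumed length, was worth 0.226 to 0.303 bases per Mb in Hopx low and 0.346 to 1.58 in naive, so lower values could not be resolved. Naive replicates 1 and 2 (1A and 1B in their descriptions) differed by about sampling noise (median chi-square ratio 0.971 over genes at that read length, against 7.14 to 17.8 for the other pairs within a group). Their mean was used as 1 sample, which leaves n = 2 for naive. Across 8593 genes, which are not independent, naive replicate 3 had a Pearson r of 0.910 with Hopx low replicate 3. With the other naive libraries its r was 0.738 and 0.734, while naive replicate 1 had 0.866 with Hopx low replicate 1. Gas5, which hosts small nucleolar RNAs in its introns, took 5.96%, 18.5% and 4.09% of coverage in Hopx low, against 40.0%, 29.1% and 5.68% in naive. The X-inactivating RNA Xist had at most 0.400 bases per Mb in Hopx low and 76.1 to 263 in naive, and the Y-linked Ddx3y had 46.9 to 85.5 in Hopx low and at most 0.300 in naive. For any gene, the sorted group cannot be told apart from this sex-linked difference. All 13 CD4 T cell marker genes with a row, among them Cd4, Cd3e and Lck, were covered, and their summed level was 4650.4 to 6860.3 bases per Mb in Hopx low and 2937 to 4424 in naive.

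In the limma fit to these groups, 1 autosomal gene rose in Hopx low after Benjamini-Hochberg adjustment (0.00963% of those tested). This gene was Lif, and 0 genes fell. At an unadjusted p under 0.05, 667 genes were higher (6.42%) and 39 lower (0.376%). In the authors' deposited table, 1262 of 22007 autosomal rows were higher and 157 lower at an unadjusted p under 0.05, with no filter on low values. Every Hopx low library lay above every naive library for 1730 genes (16.7%) and below for 249 genes (2.4%). A fit that also held the Hopx high libraries, and so drew its spread from all 3 groups, called 28 of 10445 autosomal genes higher (0.268%) and 0 lower, Lif among the 28. Without naive replicate 3 the counts were 2572 higher and 77 lower, and with naive replicate 3 as the only naive sample they were 43 and 1. Both settings leave 1 naive sample, so the spread came from Hopx low alone and the naive sample was assumed to vary like it.

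The whole distribution was shifted. The median log2 difference over the 10385 genes was 0.37, and 73.6% of genes were positive. The median was 0.86 against naive replicates 1 and 2 and -0.15 against naive replicate 3, comparisons that share the Hopx low libraries. It was 0.01 after scaling to the median gene, and -0.02 after quantile normalization. The split at an unadjusted p under 0.05 was then 511 higher and 209 lower with the median gene and 452 higher and 338 lower with quantile normalization. Differences below are on the log2(bases per Mb + 1) scale, Hopx low minus naive, and are to be read against 0.37. The scale understates changes of low genes, and a bulk RNA level cannot tell a change in the number of cells of a type from a change in RNA per cell.

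Lif encodes leukemia inhibitory factor, a cytokine of the interleukin 6 family. Lif had 435, 404 and 209.9 bases per Mb in Hopx low, against 22.8, 28.0 and 26.0 in naive. The lowest Hopx low library was several times the highest naive library, and the naive libraries lay close together. The means were 349 ± 122 bases per Mb (SD, n = 3) in Hopx low and 25.7 ± 0.422 (SD, n = 2) in naive, a log2 difference of 3.65 ± 0.45 (SE; limma adjusted p = 0.0472, 95% interval 2.62 to 4.67). The difference was 3.66 against naive replicates 1 and 2 and 3.63 against naive replicate 3, which share the Hopx low libraries. Its adjusted p was close to the threshold, and over 19 alternative settings it passed in 6 and missed in 13. Without any 1 of the Hopx low libraries it ran from 0.0754 to 0.960, and with the median gene as scale it was 0.190. The log2 difference itself ran from 3.24 to 3.98 over these settings. Lif lies on chromosome 11 at 4257557 to 4272514 of GRCm38, on the plus strand.

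The promoters of Lif and of 2 other genes among the smallest p-values, Chac1 and Irf8, are shown because their transcripts stood far above naive in every Hopx low library. Each is 300 bases around the RefSeq start on GRCm38.p6, plus strand, 5′ to 3′, with matches to a searched motif in capitals.
Lif (chr11:4257318-4257617): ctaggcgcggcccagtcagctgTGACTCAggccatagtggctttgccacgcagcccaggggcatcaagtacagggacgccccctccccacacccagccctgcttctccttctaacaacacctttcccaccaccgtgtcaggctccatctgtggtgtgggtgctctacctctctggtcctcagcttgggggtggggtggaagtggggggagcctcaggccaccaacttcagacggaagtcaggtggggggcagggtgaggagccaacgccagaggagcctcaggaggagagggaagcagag
Chac1 (chr2:119350992-119351291): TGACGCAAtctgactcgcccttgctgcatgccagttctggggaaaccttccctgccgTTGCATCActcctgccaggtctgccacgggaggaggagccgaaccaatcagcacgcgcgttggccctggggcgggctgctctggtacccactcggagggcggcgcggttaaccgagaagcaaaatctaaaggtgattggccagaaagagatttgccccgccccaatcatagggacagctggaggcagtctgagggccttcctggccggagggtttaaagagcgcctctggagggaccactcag
Irf8 (chr8:120736108-120736407): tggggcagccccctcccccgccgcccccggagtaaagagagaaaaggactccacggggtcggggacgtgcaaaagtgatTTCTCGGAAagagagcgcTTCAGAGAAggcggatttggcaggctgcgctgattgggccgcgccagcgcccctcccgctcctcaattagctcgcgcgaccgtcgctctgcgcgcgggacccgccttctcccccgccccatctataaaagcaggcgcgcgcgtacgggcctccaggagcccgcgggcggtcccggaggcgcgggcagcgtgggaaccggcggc
The motifs searched, on both strands, were the AP-1 site TGANTCA, the cyclic AMP element TGACGTCA, the ATF4 with C/EBP site TGANGCAA, the STAT site TTCNNNGAA and the NFAT core TGGAAAA. The Lif window holds an AP-1 match at base 23, the Chac1 window ATF4 matches at bases 1 and 58, and the Irf8 window STAT matches at bases 80 and 98. Of 32851 RefSeq promoter windows of this length, 7.81% hold the AP-1 letters, 1.79% the cyclic AMP element, 3.69% the ATF4 letters, 8.30% the STAT letters and 6.73% the NFAT letters. A match is a string of letters, and binding was not measured. Of the 30 genes named by rule, 20 had a window in the RefSeq table. Only Lif, Chac1 and Irf8 are shown, and matches in the other windows are not given. The matches therefore do not describe the named genes as a group.

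**Figure D1:**
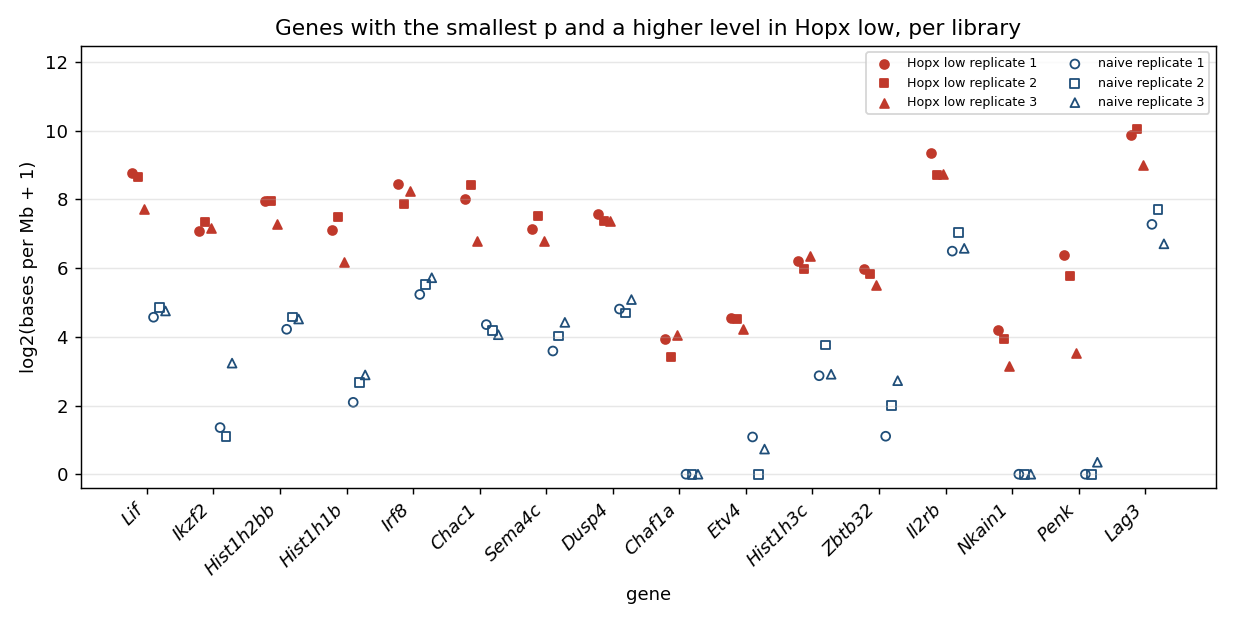
Level of each gene with a positive difference and the smallest p, as log2(bases per Mb + 1), in Hopx low (filled, left) and naive (open, right) libraries, with marker shape giving the replicate. Every Hopx low library lies above every naive library for each of the 16 genes, against 16.7% of all tested genes. The genes were picked for a small p, which favours such separation. Chaf1a and Nkain1, at 0 in naive, had to come out higher. So did Etv4 and Penk, with naive means of 0.611 and 0.137, under the filter of 1. Only Lif passed the limma test (adjusted p = 0.0472).

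A further 3 genes missed the threshold narrowly, each with a limma adjusted p of 0.0512: Ikzf2, Hist1h2bb and Hist1h1b. Ikzf2, which encodes Helios, lies on chromosome 1 at 69531214 to 69687245 on the minus strand. Ikzf2 had 134, 161 and 142 bases per Mb in Hopx low, against 1.56, 1.16 and 8.41 in naive. It was low in all 3 naive libraries and alike in the 3 Hopx low libraries, and the groups were far apart. The log2 difference was 4.96 ± 0.65 (SE, 95% interval 3.49 to 6.42), 5.95 against naive replicates 1 and 2 and 3.96 against naive replicate 3. Ikzf2 passed in 9 of 19 alternative settings, among them scaling by the median gene (adjusted p = 0.0128), where it took the place of Lif as the only call. The other tested Ikaros genes were not set apart. Ikzf1 (Ikaros) had 347, 324 and 407 in Hopx low, against 173, 172 and 452 in naive (adjusted p = 0.916), and Ikzf3 (Aiolos) had 87.1, 94.4 and 115 in Hopx low, against 47.9, 52.9 and 308 in naive (adjusted p = 0.944). For both, naive replicate 3 was above every Hopx low library and naive replicates 1 and 2 below.

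Of the regulatory T cell program, 15 of 22 listed genes were tested, and all 15 were higher on average in Hopx low, with a median of 1.76. In 12 of the 15 the groups did not overlap, and 10 had an unadjusted p under 0.05, against 16.7% and 6.42% of all genes. None of the 15 passed after adjustment, and 3 were among the 28 calls of the fit with all groups: Ikzf2, Il2rb and Folr4. Ikzf2 is also in the Ikaros list, and the counts of lists that share members are not independent. Il2rb, the beta chain shared by the IL-2 and interleukin 15 receptors, had 656, 415 and 424 in Hopx low, against 89.2, 129 and 94.5 in naive (log2 difference 2.25 ± 0.39, adjusted p = 0.163). Tnfrsf4, the costimulatory receptor OX40, had 222, 119 and 182 in Hopx low, against 33.3, 28.4 and 30.1 in naive (adjusted p = 0.193). Every Hopx low library of these receptors lay above the naive range. Folr4, the gene of the receptor Juno that regulatory and anergic CD4 T cells carry, had 71.8, 81.3 and 77.6 in Hopx low, against 0, 5.36 and 14.0 in naive. Foxp3 is X-linked and so lies outside the autosomal rows. It had 4.47, 2.49 and 4.68 bases per Mb in Hopx low, against 0, 0 and 0.509 in naive, a log2 difference of 1.96 that did not pass (adjusted p = 0.526). The naive values are about the worth of single reads. Their mean of 0.254 was under the filter of 1, so the direction of Foxp3 was fixed.

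Hopx itself, on chromosome 5 at 77086988 to 77115121, was at a low level. Hopx had 3.32, 6.90 and 3.29 bases per Mb in Hopx low, against 0, 0 and 1.64 in naive. Because its naive mean of 0.822 was under the filter of 1, the gene passed through Hopx low and had to come out higher. All 3 Hopx low libraries were above naive, where a read of 100 bases would give 0.346 to 1.58, and the log2 difference of 1.70 ± 0.70 did not pass (adjusted p = 0.699, 95% interval 0.11 to 3.29).

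Coinhibitory receptors and ligands had the highest median of the lists in the main comparison, 1.89. Of 12 tested members, 11 were positive, 7 had groups that did not overlap and 6 had an unadjusted p under 0.05, against 73.6%, 16.7% and 6.42% of all genes, while none passed after adjustment. Lag3, a receptor for MHC class II that restrains T cells, had 931, 1070.5 and 512 in Hopx low, against 154, 207 and 104 in naive. Its log2 difference was 2.54 ± 0.46 (adjusted p = 0.188), and it was the 1 member called in the fit with all groups (adjusted p = 0.0232). Cd200, the ligand of the inhibitory receptor CD200R, had 126, 163 and 241 in Hopx low, against 10.4, 20.8 and 51.1 in naive. Ctla4, which competes with CD28 for its ligands, had 54.9, 45.3 and 60.7 in Hopx low, against 0, 6.33 and 18.3 in naive. Pdcd1, the receptor PD-1, had 63.8, 61.8 and 89.3 in Hopx low, against 1.77, 8.11 and 32.2 in naive. In all of these the naive libraries differed among themselves, replicate 3 being highest for Cd200, Ctla4 and Pdcd1 and lowest for Lag3. Against naive replicate 3 alone the list median was 1.09, and against replicates 1 and 2 it was 2.34. Its rank was not stable. With the median gene as scale its median was 1.51 and that of G1/S genes 1.54, and against naive replicate 3 the regulatory T cell program had 1.49.

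The IL-2 and STAT5 list, which holds Lif, had a median of 0.86 with 13 of 17 tested members positive, and Lif was its 1 call. Groups did not overlap for 9 members and 5 had an unadjusted p under 0.05 (16.7% and 6.42% of all genes), and the share that was positive is near the 73.6% of all genes. Cish, a feedback inhibitor induced by STAT5, had 622, 361 and 266 in Hopx low, against 208, 201 and 124 in naive (adjusted p = 0.611). Il15ra, the alpha chain of the interleukin 15 receptor, had 41.5, 78.5 and 53.7 in Hopx low, against 13.1, 14.4 and 27.9 in naive (adjusted p = 0.643). Both were higher in every Hopx low library. Il2 had 40.1, 40.3 and 33.9 in Hopx low, against 33.8, 34.4 and 10.05 in naive, so the ranges met, and only naive replicate 3 was set apart by a low value. Its difference of 0.98 ± 0.62 did not pass (adjusted p = 0.859) and has a 95% interval of -0.43 to 2.40.

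Among 18 tested TNF receptor family costimulators 13 were positive (median 0.82), a share near the 73.6% of all genes, and 8 had groups that did not overlap (16.7% of all genes). Without the 1 member at 0 in naive, whose direction the filter fixes, 12 of 17 were positive with a median of 0.64. Tnfrsf18, the receptor GITR, had 231, 103 and 195 in Hopx low, against 19.1, 32.4 and 50.6 in naive (adjusted p = 0.341), and Tnfrsf9, the receptor 4-1BB, had 399.9, 349 and 587 in Hopx low, against 81.6, 97.8 and 241 in naive (adjusted p = 0.534). Both were above naive in every Hopx low library. Of the Bcl-2 family, 13 of 15 were positive (median 0.74), 6 were above naive in every Hopx low library and 1 below, and 3 had an unadjusted p under 0.05, against 73.6%, 16.7%, 2.4% and 6.42% of all genes. Bcl2a1d, an antiapoptotic member with near-identical copies that could share reads, had 89.6, 105 and 101 in Hopx low, against 25.9, 26.4 and 38.6 in naive (adjusted p = 0.426). Bcl2l11, the proapoptotic factor Bim, was below naive in every Hopx low library, with 208, 208 and 121 in Hopx low, against 299, 317 and 306 in naive (adjusted p = 0.794).

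**Figure D2:**
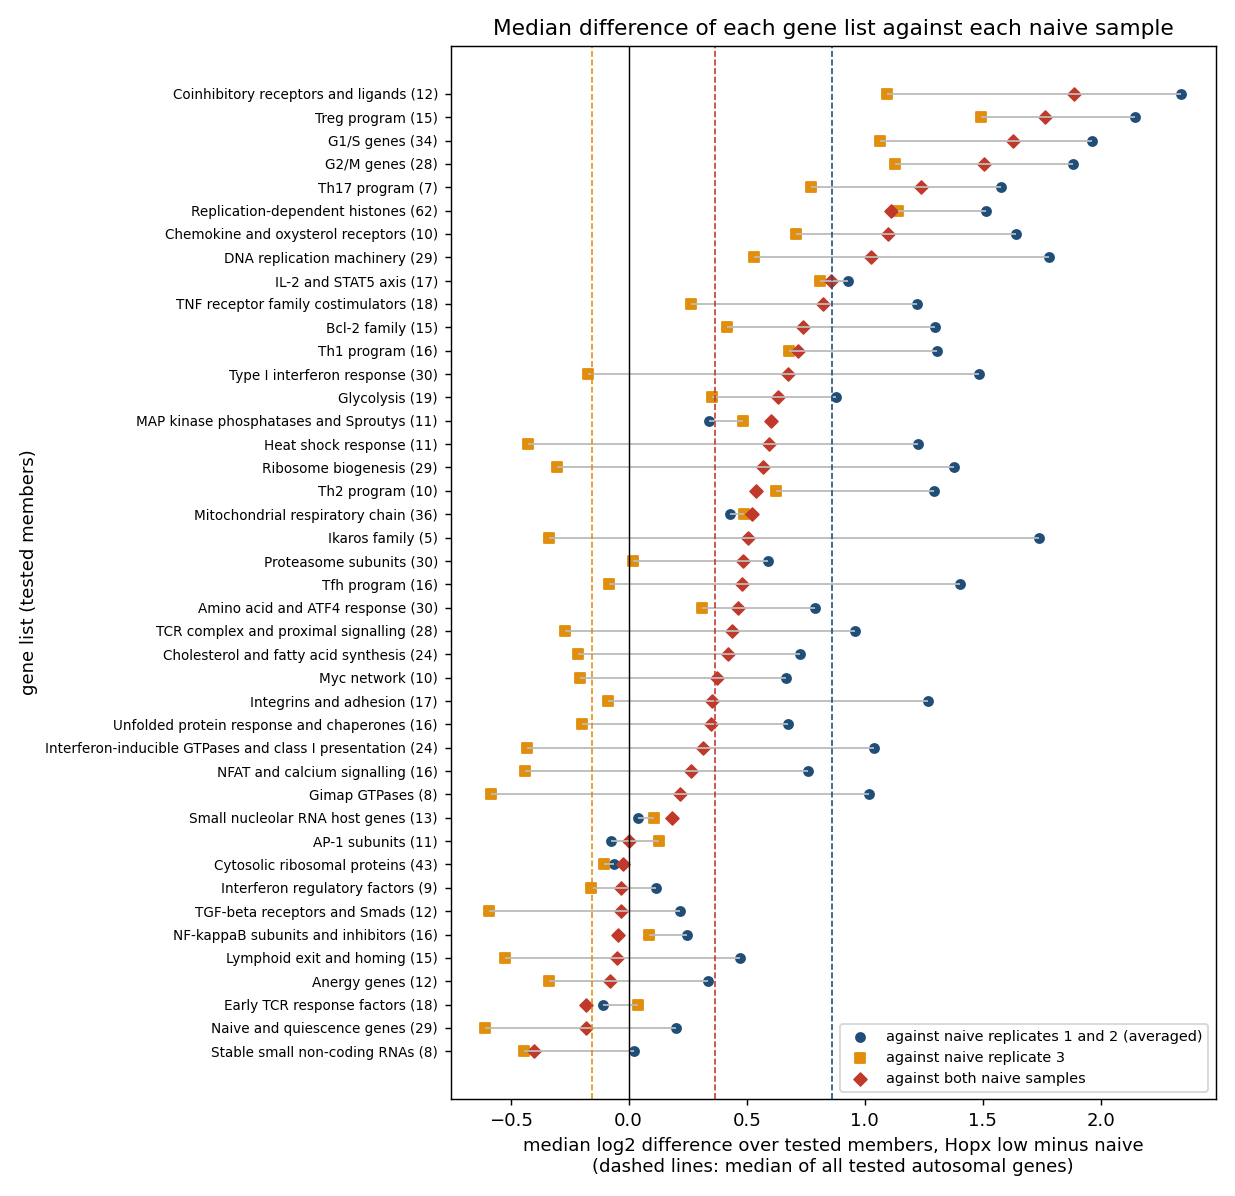
Median log2 difference (Hopx low minus naive) over the tested members of each of 42 gene lists, against both naive samples (diamonds), against naive replicates 1 and 2 (circles) and against naive replicate 3 (squares), which share the Hopx low libraries. Dashed lines give the median of all tested genes for the same comparison, 0.37, 0.86 and -0.15, and the coinhibitory (1.89), regulatory T cell (1.76), G1/S (1.63) and G2/M (1.51) lists lie farthest to the right.

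Among helper lineage factors, the Th1 list had a median of 0.72 with 13 of 16 tested members positive and 4 non-overlapping. These shares are not far from the 73.6% and 16.7% of all genes. An unadjusted p under 0.05 was reached by 4 of the 16, all higher, against 6.42% of all genes, and none passed after adjustment. Irf8, an interferon regulatory factor, had 348, 232 and 303 in Hopx low, against 36.6, 44.8 and 51.7 in naive, with the groups well apart (log2 difference 2.64 ± 0.40, adjusted p = 0.104). Il12rb1, a chain of the interleukin 12 receptor, had 76.0, 66.3 and 79.1 in Hopx low, against 16.6, 13.2 and 8.65 in naive (adjusted p = 0.268). Eomes, a T-box factor, had 96.4, 67.6 and 122 in Hopx low, against 8.37, 20.8 and 31.0 in naive (adjusted p = 0.364). All 3 were above naive in every Hopx low library. Irf8 is also a factor of dendritic and B cells, and of their markers Xcr1, Clec9a and Siglech were at 0 in all 6 libraries while summed dendritic and monocyte markers were 113, 92.4 and 176 bases per Mb in Hopx low, against 22.5, 38.8 and 93.6 in naive. Tbx21 had 14.8, 9.49 and 3.72 bases per Mb in Hopx low, against 0, 0 and 0.384 in naive. The naive mean, 0.192, was under the filter of 1, so Tbx21 passed through Hopx low and had to come out higher. T-bet, which Tbx21 encodes and which drives Th1 differentiation, was thus at or near 0 in every naive library and low in Hopx low replicate 3, and its difference of 2.97 ± 0.73 did not pass (adjusted p = 0.364, and 0.0856 in the fit with all groups).

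In the Th2 list 8 of 10 were positive (median 0.54), and 7 of 9 (median 0.29) without a member at 0 in naive. It was led by Bhlhe40, a transcription factor of effector T cells, with 467, 391 and 339.8 in Hopx low, against 92.7, 106 and 152 in naive (adjusted p = 0.341). In the Th17 list 6 of 7 were positive (median 1.24), and 5 of 6 (median 1.03) without Ccr6, which passed the filter through Hopx low alone, so that its direction was fixed. Ccr6, a chemokine receptor of Th17 cells, had 1.31, 4.61 and 1.14 in Hopx low, against 0, 0 and 0 in naive. For Ccr6, listed at 0 in every naive library, no fold is given.

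Follicular helper genes had a median of 0.48, near the 0.37 of all genes. With quantile normalization it was -0.03 against -0.02 for all genes, and with the median gene as scale 0.34 against 0.01. Cxcr5, the receptor that guides T cells to B cell follicles, had 25.6, 15.6 and 58.8 in Hopx low, against 0, 0 and 1.53 in naive. Its log2 difference was 4.23 ± 0.80 (adjusted p = 0.236, and 0.00539 in the fit with all groups). With a naive mean of 0.763, under the filter of 1, Cxcr5 passed through Hopx low and had to come out higher. Tcf7, a factor shared by naive and follicular helper cells, had 2083, 1948 and 1808 in Hopx low, against 1118, 1382 and 2158 in naive, with overlapping groups. Of 10 tested chemokine and oxysterol receptors and ligands 8 were positive (median 1.10), and 7 of 9 (median 1.09) without a member at 0 in naive. Ccr8, a receptor of Th2 and regulatory T cells, had 74.1, 33.8 and 77.8 in Hopx low, against 6.49, 6.16 and 19.0 in naive (adjusted p = 0.468), and Xcl1, a chemokine that attracts cross-presenting dendritic cells, had 26.6, 5.72 and 12.5 in Hopx low, against 0, 0 and 1.79 in naive (adjusted p = 0.426). Hopx low lay above naive in every library for both. Xcl1 reached the filter through Hopx low, which fixes its direction.

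Early response factors downstream of the TCR did not share a direction. Of 18 tested members 7 were positive and the median was -0.18, which is below the 0.37 of all genes. Nr4a1 had 3536, 1645 and 1319 bases per Mb in Hopx low, against 3479, 4328 and 1623 in naive, so that the groups overlapped (adjusted p = 0.931). Egr1, a zinc finger factor induced within minutes of TCR signalling, was below naive in every Hopx low library, with 246, 154 and 150.0 in Hopx low, against 417, 560.4 and 286 in naive (log2 difference -1.06 ± 0.43, adjusted p = 0.686). Cd83, an activation marker of lymphocytes and dendritic cells, was above it with 52.1, 50.7 and 63.7 in Hopx low, against 1.17, 3.63 and 12.8 in naive (adjusted p = 0.341). AP-1 subunits had a median of 0.00 over 11 tested genes, 6 positive and none with groups apart, and Junb had 1936, 734 and 1236 in Hopx low, against 1921, 2629 and 1065 in naive. NF-kappaB subunits and inhibitors likewise had 8 of 16 positive (median -0.04) and no gene with groups apart. Of all genes, 73.6% were positive, 16.7% were above naive in every Hopx low library and 2.4% below. With no member apart, both lists lay below those shares, and in lists this small the shortfall was not tested. With the median gene as scale, where the median of all genes was 0.01, these medians were -0.41 for AP-1 and -0.45 for NF-kappaB.

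Among MAP kinase phosphatases and Sproutys, 8 of 11 were positive (median 0.60). Dusp4, which dephosphorylates ERK and other MAP kinases, had 188, 164 and 165 in Hopx low, against 27.0, 24.9 and 33.0 in naive, a clear gap between groups with tight replicates (log2 difference 2.51 ± 0.40, adjusted p = 0.136). Dusp14 had 20.4, 14.6 and 8.95 in Hopx low, against 0, 1.62 and 0.273 in naive (adjusted p = 0.293). Its naive mean of 0.541 was under the filter of 1, so its direction was fixed. Dusp5, in contrast, had 826, 491 and 527 in Hopx low, against 681, 892 and 456 in naive, with the groups overlapping. Both Dusp4 and Dusp14 were among the 28 calls of the fit with all groups (adjusted p = 0.0108 for Dusp4). The TCR complex and proximal signalling list had 25 of 28 positive with a median of 0.44, near that of all genes, and Cd3d had 233, 168 and 189.5 in Hopx low, against 72.1, 103 and 126 in naive.

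Other genes with the smallest p were a mixed group. Etv4, an ETS transcription factor, had 22.3, 21.9 and 17.8 in Hopx low, against 1.12, 0 and 0.661 in naive (adjusted p = 0.163), and Zbtb32, a repressor of the BTB zinc finger family, had 62.0, 55.5 and 44.2 in Hopx low, against 1.15, 3.00 and 5.61 in naive (adjusted p = 0.163). Sema4c, a membrane semaphorin, had 140.4, 183 and 109 in Hopx low, against 11.0, 15.3 and 20.4 in naive (adjusted p = 0.113). All were several times above naive in each Hopx low library. Penk, which encodes proenkephalin, the precursor of opioid peptides, had 81.6, 53.4 and 10.5 in Hopx low, against 0, 0 and 0.273 in naive, a wide spread within Hopx low, with replicate 3 lowest (log2 difference 5.05 ± 0.91, adjusted p = 0.188). Nkain1 had 17.2, 14.3 and 7.83 in Hopx low, against 0, 0 and 0 in naive (adjusted p = 0.181). It was among 63 tested genes listed at 0 in every naive library. A gene of that kind passed the filter through Hopx low alone and had to come out higher. Etv4 and Penk, with naive means of 0.611 and 0.137, under the filter of 1, passed in the same way and had to come out higher too. Other genes near 0 in naive could pass likewise, and list counts without members at 0 in naive still hold them.

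The genes of the cell cycle were mostly higher in Hopx low. Of 34 tested G1/S genes 33 were positive (median 1.63), 21 had groups that did not overlap and 20 had an unadjusted p under 0.05, against 73.6%, 16.7% and 6.42% of all genes. Of 29 DNA replication genes all 29 were positive (median 1.03) with 16 non-overlapping, and of 28 G2/M genes 27 were positive (median 1.51) with 18 above naive and 1 below (2.4% of all genes). None passed after adjustment. Against naive replicate 3 alone these medians were 1.06, 0.53 and 1.13, and against naive replicates 1 and 2 they were 1.96, 1.78 and 1.88. Members at 0 in naive passed the filter through Hopx low, which fixes their direction: 2 G1/S, 1 DNA replication and 5 G2/M genes. Without them 31 of 32 G1/S genes were positive (median 1.60), 28 of 28 DNA replication genes (median 1.02) and 22 of 23 G2/M genes (median 1.35). Members near 0 in naive but not at it, such as Mki67 and Cdk1, were kept. They too reached the filter through Hopx low, so these shares are not free of that selection.

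Among replication genes with more coverage, Mcm5, a subunit of the replicative helicase, had 259.9, 225 and 289 in Hopx low, against 59.3, 84.5 and 78.7 in naive (log2 difference 1.76 ± 0.37, adjusted p = 0.299). Mcm3, of the same helicase, had 165, 135 and 175 in Hopx low, against 20.4, 28.7 and 53.0 in naive, and Mcm2 had 349, 374 and 374 in Hopx low, against 119, 134 and 156 in naive. The 3 subunits had the same pattern, with the Hopx low libraries close together and all above naive. Uhrf1, which brings the maintenance DNA methyltransferase to replicated DNA, had 78.9, 40.7 and 53.6 in Hopx low, against 8.34, 8.90 and 10.4 in naive (adjusted p = 0.333). Cdk4, the kinase partner of D cyclins, had 959, 766 and 497 in Hopx low, against 298, 399 and 188 in naive (adjusted p = 0.504), whereas Ccnd2, a D cyclin, had 860.0, 753 and 782 in Hopx low, against 304, 379 and 961 in naive, with naive replicate 3 the highest library.

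The low end of these lists was at or near 0 in naive. Chaf1a, the large subunit of the histone chaperone that assembles chromatin behind the fork, had 14.4, 9.60 and 15.7 in Hopx low, against 0, 0 and 0 in naive (adjusted p = 0.163, and 0.00493 in the fit with all groups). In this comparison Chaf1a passed the filter through Hopx low alone, so its direction was fixed. Mki67, the proliferation antigen Ki-67, had 7.55, 7.23 and 15.1 in Hopx low, against 0, 0 and 1.11 in naive (adjusted p = 0.364), and Cdk1, the mitotic kinase, had 7.11, 6.14 and 9.90 in Hopx low, against 0, 0 and 1.74 in naive. These were small but non-zero in each Hopx low library. E2f2, a transcription factor of S phase entry, had 21.3, 16.2 and 20.6 in Hopx low, against 0.316, 0.231 and 3.76 in naive (adjusted p = 0.364). Cdc25b, a phosphatase that activates Cdk1, was the G2/M gene below naive in every library, with 30.2, 24.5 and 25.1 in Hopx low, against 39.9, 46.7 and 40.0 in naive (adjusted p = 0.868).

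Replication-dependent histones had 57 of 62 tested members positive (median 1.11), 33 above naive in every Hopx low library and 26 with an unadjusted p under 0.05, against 73.6%, 16.7% and 6.42% of all genes. Hist1h2bb had 248, 249 and 155 bases per Mb in Hopx low, against 17.6, 22.9 and 21.9 in naive (log2 difference 3.27 ± 0.43). Hist1h1b, a linker histone gene, had 138, 178 and 71.5 in Hopx low, against 3.27, 5.38 and 6.42 in naive (log2 difference 4.27 ± 0.57), and Hist1h3c had 72.5, 61.9 and 80.3 in Hopx low, against 6.30, 12.6 and 6.52 in naive (adjusted p = 0.163). The gap was wide for all 3, which were also called in the fit with all groups. The most covered member, Hist1h1e, had 3096, 7434 and 1921 in Hopx low, against 2376, 3126 and 972 in naive, with groups that overlapped. Histone genes are near-identical copies, and the sources used here do not give how shared reads were assigned, so single members are uncertain.

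**Figure D3:**
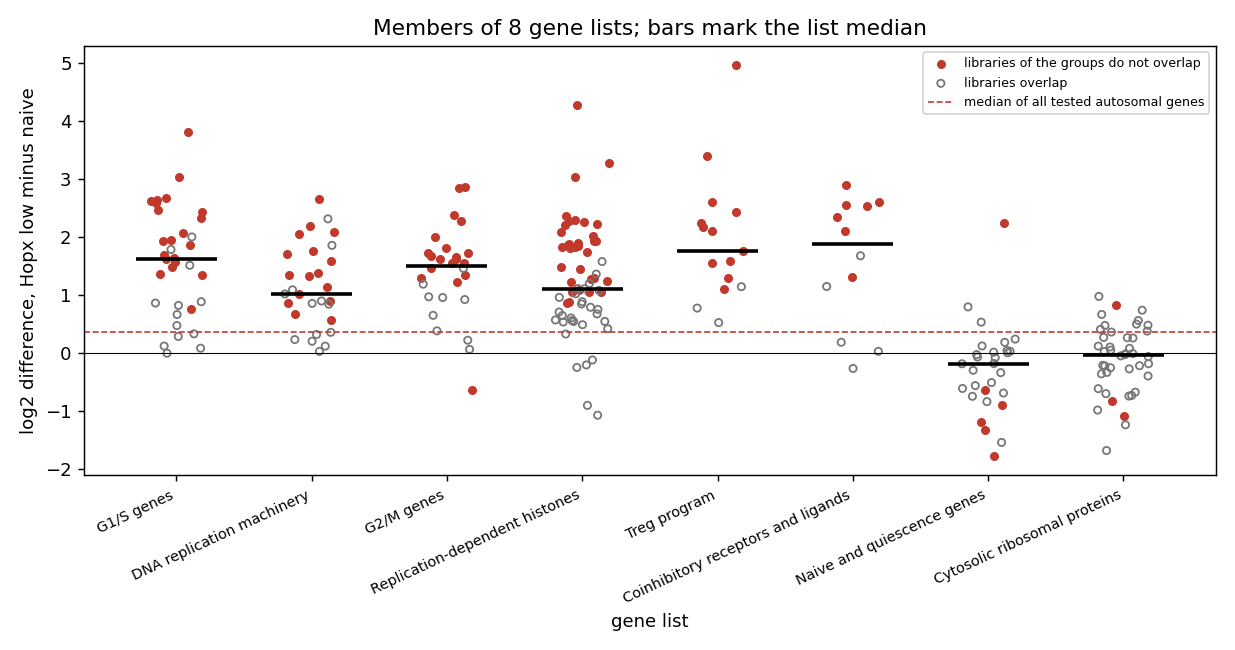
Log2 difference (Hopx low minus naive) of each tested member of 8 gene lists, filled where the libraries of the groups do not overlap, with a bar at each list's median and a dashed line at 0.37, the median of all tested genes. Cell cycle, histone, regulatory T cell and coinhibitory members lie mostly above the line, while naive and quiescence genes (median -0.18) and ribosomal proteins (-0.02) straddle 0.

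The amino acid and ATF4 response list had 28 of 30 tested members positive, with a median of 0.47 close to that of all genes, and 9 members above naive in every Hopx low library and 1 below (16.7% and 2.4% of all genes). Chac1, a glutathione-degrading enzyme induced by ATF4, had 258, 339 and 111 in Hopx low, against 19.5, 17.3 and 15.7 in naive (log2 difference 3.57 ± 0.54, adjusted p = 0.104, and 0.00306 in the fit with all groups). Asns, asparagine synthetase, had 10.6, 9.36 and 39.8 in Hopx low, against 0, 0 and 3.34 in naive (adjusted p = 0.504). Atf4 itself had 1892, 1795 and 1030.0 in Hopx low, against 658, 797 and 760.0 in naive (adjusted p = 0.689). All 3 were above naive in each Hopx low library, though Chac1 and Atf4 were lowest and Asns highest in Hopx low replicate 3. Mthfd2, a mitochondrial folate enzyme, had 238, 268 and 281 in Hopx low, against 50.6, 112 and 151 in naive (adjusted p = 0.584). The unfolded protein response list had a median of 0.35 with no gene whose groups were apart.

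Other metabolic lists had medians not far above that of all genes. Glycolysis had 18 of 19 positive (median 0.63), with Tpi1, triosephosphate isomerase, at 95.1, 86.4 and 118 in Hopx low, against 11.6, 25.7 and 24.5 in naive (adjusted p = 0.295) and Aldoa, aldolase, at 1195, 681 and 722 in Hopx low, against 1030.1, 1326 and 517 in naive, where groups overlapped. Respiratory chain genes had 26 of 36 positive (median 0.52), proteasome subunits 21 of 30 (0.48) and cholesterol and fatty acid synthesis 18 of 24 (0.42). Of all genes 73.6% were positive. Above naive in every Hopx low library were 8 glycolysis, 10 respiratory chain, 2 proteasome and 8 cholesterol and fatty acid genes, against 16.7% of all genes. Bmyc, a Myc relative, had 60.2, 26.0 and 21.0 in Hopx low, against 0, 0 and 2.71 in naive (adjusted p = 0.268), whereas Myc had 1100.2, 616 and 585 in Hopx low, against 518, 666 and 560.3 in naive, with overlapping groups (adjusted p = 0.902).

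No gene fell after adjustment in the limma test, and 39 had an unadjusted p under 0.05 on the lower side. Naive and quiescence genes had 10 of 29 positive and a median of -0.18, with 5 below naive in every Hopx low library and 1 above, where 73.6% of all genes were positive, 2.4% below and 16.7% above. Txnip, a glucose uptake inhibitor of resting cells, had 477, 477 and 414 in Hopx low, against 885, 1015 and 1126 in naive (log2 difference -1.18 ± 0.35, adjusted p = 0.504). Klf2, the quiescence factor that also drives exit from lymph nodes, had 267, 183 and 89.1 in Hopx low, against 849, 1074 and 236 in naive (adjusted p = 0.718). Its groups overlapped, since naive replicate 3 was below Hopx low replicate 1, and Klf3, a relative, had 23.1, 16.2 and 24.5 in Hopx low, against 37.9, 54.7 and 63.3 in naive (adjusted p = 0.671). Igfbp4 was the member above naive, with 153, 92.2 and 116 in Hopx low, against 20.5, 15.6 and 31.7 in naive (adjusted p = 0.299). Against naive replicates 1 and 2 the list median was 0.20 and against naive replicate 3 it was -0.61, each below the median of all genes in the same comparison.

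The lymphoid exit and homing list had 7 of 15 tested members positive and a median of -0.05, against 73.6% and 0.37 for all genes. In it 1 member was above naive in every Hopx low library and 1 below (16.7% and 2.4% of all genes). Among homing genes Cd44, an adhesion receptor that marks antigen-experienced T cells, was higher in each Hopx low library, with 105, 90.4 and 124 in Hopx low, against 8.34, 10.5 and 40.6 in naive (adjusted p = 0.387). Cxcr4, a receptor for bone marrow and lymph node retention, was lower in each, with 23.3, 18.8 and 31.4 in Hopx low, against 55.0, 54.8 and 59.6 in naive (adjusted p = 0.700). Ccr7, the lymph node entry receptor, had 1495, 1257 and 2206 in Hopx low, against 1074, 1240.0 and 2871 in naive, so the groups overlapped.

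The lower gene with the smallest p was Cited4, a transcriptional coregulator. With a Hopx low mean of 0.893, under the filter of 1, it passed through naive and had to come out lower. Cited4 had 1.06, 1.23 and 0.389 bases per Mb in Hopx low, against 14.7, 14.7 and 9.54 in naive, a log2 difference of -2.79 ± 0.64 (adjusted p = 0.341, 95% interval -4.25 to -1.34). Lars2, mitochondrial leucyl-tRNA synthetase, had 4212, 6665 and 17218 in Hopx low, against 24271, 26796 and 42472 in naive (adjusted p = 0.587). Both were below naive in every Hopx low library. For Lars2 the libraries of each group were spread widely, with replicate 3 the highest in both. Map1b, Sec31b, Pak1, Pde2a, Kcng3 and Cd55 had group means of 3.79 bases per Mb or less in Hopx low. For Map1b and Kcng3 these were 0.989 and 0.740, under the filter of 1, so their direction was fixed as well.

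**Figure D4:**
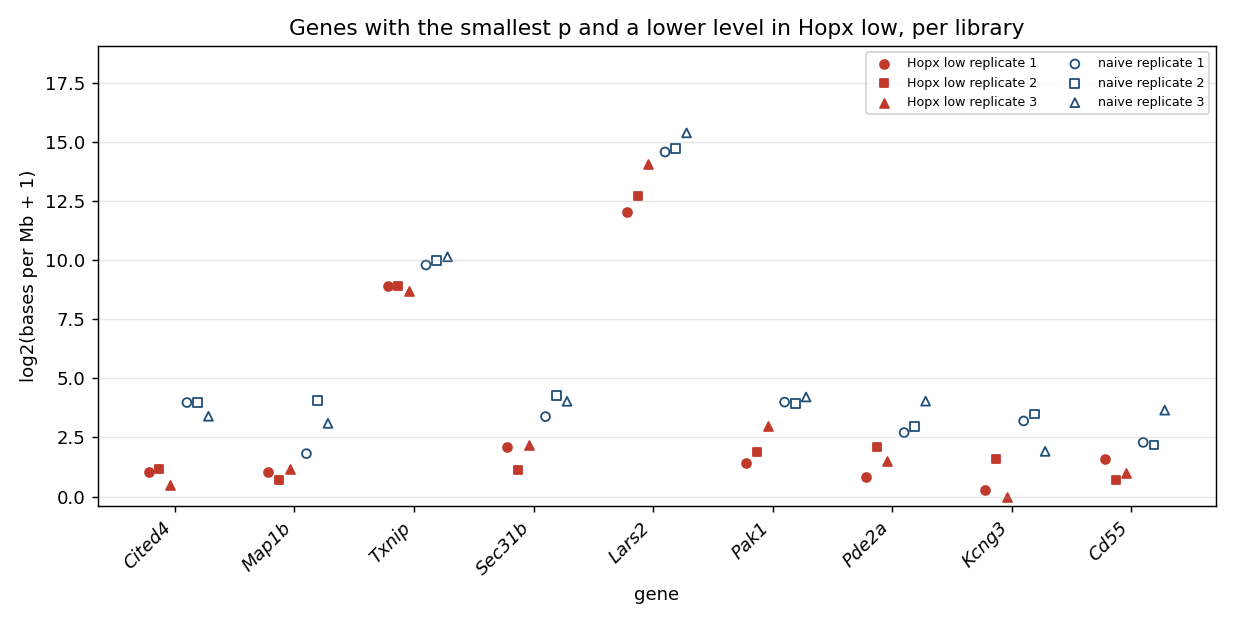
Level of genes with a negative difference and the smallest p, as log2(bases per Mb + 1), in Hopx low (filled, left) and naive (open, right) libraries. Every Hopx low library lies below every naive library for each gene shown, against 2.4% of all tested genes. The genes were picked for a small p, which favours such separation. None passed the limma test, Cited4 coming closest (adjusted p = 0.341).

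Several lists depended on which naive sample they were set against. The type I interferon response had 26 of 30 positive (median 0.67), but its median was 1.48 against naive replicates 1 and 2 and -0.17 against naive replicate 3. Ribosome biogenesis had 0.57, with 1.38 and -0.30 in the same order, and the Gimap GTPases of lymphocyte survival 0.22, with 1.02 and -0.58. Cytosolic ribosomal protein genes had 19 of 43 positive with a median of -0.02, and -0.06 and -0.10 against these naive samples, which is below the median of all genes except against naive replicate 3. Rpl12 had 269.6, 123 and 118 in Hopx low, against 1013, 1249.7 and 226 in naive, so naive replicates 1 and 2 were far above Hopx low and naive replicate 3 lay within its range. Gas5 was lower than naive on average by 0.87 but by a margin within its error (SE 1.09, adjusted p = 0.912), and was 0.43 higher against naive replicate 3 alone.

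Markers of other cell types were at low levels. Summed B cell markers had 22.7, 23.9 and 31.0 bases per Mb in Hopx low, against 15.6, 13.4 and 44.6 in naive, and Cr2 was at 0 in all 6 libraries. In the dendritic cell and monocyte or macrophage list, whose sums are given with Irf8, 7 of 8 tested genes were positive, and Hopx low replicate 2 was just below naive replicate 3. Most of that sum was Cst3 and Ctss, which many cell types express. MHC class II genes, which are expressed by the antigen-presenting cells of the culture, had 78.6, 52.9 and 20.8 in Hopx low, against 24.9, 23.0 and 43.7 in naive. Natural killer cell markers had 101, 69.9 and 129 in Hopx low, against 8.91, 21.8 and 38.9 in naive, most of it Eomes, which T cells also express, and Klrb1c, Klre1, Klrk1 and Gzma were at 0 in all 6 libraries. Neutrophil markers reached at most 2.21 in Hopx low and were at 0 in naive, and erythroid and platelet markers were at most 8.79 in any library. CD8 T cell markers had 25.3 to 31.4 in Hopx low and 15.6 to 23.8 in naive. The part of carried-over cells in the differences above was not tested.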

How the data were processed

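RNA was measured in 9 libraries in 3 groups of 3, and the 6 Hopx low and naive libraries were compared here. The authors deposited a table with a coverage signal per gene row and library. By a check of the numbers, a signal is the bases summed over the gene plus 1 added base, scaled per library. The bases came out whole in 100% of values within 1e-06. Group means, a ratio of means and an unadjusted p-value by the authors are in it too. Per the submitters' processing notes, bedtools and mm10 were used. An Ion Total RNA kit was used after depletion of ribosomal RNA, per the labels' protocols. Aligner, annotation and strand use: not given in the sources used here. Genes that overlap or lie antisense are therefore uncertain.

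The added base was removed and values were scaled to bases per Mb of summed coverage. Reads cannot be recovered from bases, so no count test was run. Naive replicates 1 and 2 were averaged. Rows whose mean over the 5 samples reached 1 base per Mb, 10762 in all, went into a limma model (version 3.58.1, with R 4.3.3) of log2(value + 1), with trended variance and the Benjamini-Hochberg method at 0.05 over all tested rows. Every adjusted p, and each p under 0.05 called unadjusted, is limma's and two-sided. Autosomal rows are reported, located by name on GRCm38, and the test calls 5 rows in all, of which 4 are sex-linked. Of 909 listed genes in 42 lists, 16 had no row and 9 matched by an older symbol. Lists were described by counts and medians only.

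The members and lists were chosen with earlier results of these data known. Hopx, Ikzf2, Tbx21, Foxp3, Il2 and Gas5 were always named. Where fewer than 20 genes passed, the 15 genes with the smallest p and a positive difference and the 10 with a negative one were named if a group mean reached 5 bases per Mb, leaving out clone names, predicted genes, small RNAs and receptor segments. From each list, up to 4 members with the smallest p and up to 2 with the highest mean could be named. Some genes that the rule picks are not reported here. Tables and figures were made with Python 3.11.15, pandas 2.3.3 and matplotlib 3.10.9. Alternatives changed scaling, pseudocount, filter, trend, samples and replicate block. The test was tried on simulated data first.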

Additional observations from a re-analysis of the deposited data

How the results depend on the processing

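The count of 1 gene higher in Hopx low was 0 with a pseudocount of 0.1, with no filter, with a filter at a mean of 5, without a variance trend and with the values as deposited. It was 2 with a pseudocount of 4, 28 with all 3 groups in the fit and 19 with naive 1 and 2 as separate samples. Leaving out single replicates gave 0 to 2572 genes higher and 0 to 77 lower, and the 2572 and 77 came without naive replicate 3. With naive replicate 3 as the only naive sample, an alternative chosen after seeing the data, 43 were higher and 1 lower. Both settings leave 1 naive sample, which is assumed to vary like Hopx low. A replicate block gave 121 higher and 7 lower, in effect without Hopx low replicate 2, which has no naive partner once naive 1 and 2 are averaged. Deviations of same-numbered libraries correlated with r of 0.496, 0.0474 and 0.584, so not every pair was over 0.1. Deviations of Hopx low replicate 1 followed those of naive 1 (0.496) and, more closely, naive 2 (0.550), and ran opposite to naive 3 (-0.627). For Hopx low replicate 3 the signs were reversed (-0.468, -0.506 and 0.584). Because deviations within a group offset each other, these matches are tied to one another. They cannot show that libraries were paired by replicate, and the design does not state it. Scaling by the median gene, quantile normalization and leaving Gas5 out of the coverage kept the count at 1, but the gene was Ikzf2, with adjusted p of 0.0128, 0.0131 and 0.0496, and Lif did not pass. Of 42 genes followed over 19 alternatives (18 for Hopx, Map1b, Kcng3 and Cd55, which a filter at a mean of 5 removes), only Gas5 changed sign, at 0.43 with naive replicate 3 as the only naive sample. Depth limits the naive side, where a read of 100 bases is worth up to 1.58 bases per Mb. With 3 residual degrees of freedom, the median SE of a log2 difference was 0.643.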
